A study of Canis lupus familiaris with 24 samples.

Results

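GFI1 codes for a zinc finger protein that switches genes off in blood cells. It was followed here in the lymph nodes of 4 dogs with B-cell lymphoma, each sampled by needle aspiration when the tumour no longer responded to drugs (resistant phase) and earlier, when it did (sensitive phase). The members of this account are all non-control probes whose RefSeq accession matches dog GFI1, which came to 1 probe of 43603 on a one-colour Agilent array and to 1 of the 27722 genes or unnamed transcripts tested, 718 of them with a gene symbol. GFI1 was chosen from these same data for its even fall in all dogs, so its fall in the resistant phase is given as a description, with no test of it. Dog 1 was a male Shih Tzu aged 10 years, dog 2 a male Doberman aged 9 years, dog 3 a castrated male French Bulldog aged 3 years and dog 4 a spayed female French Bulldog aged 5 years. For each dog there were 3 resistant and 3 sensitive arrays, 24 in all. The labels do not name the drugs, and they do not say whether the 3 arrays of a group came from separate aspirates, so the spread between them may be technical.

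GFI1 carries a short repressor motif at its start, the SNAG domain, and binds DNA through zinc fingers at its other end. Through the SNAG domain it brings the histone demethylase KDM1A, its scaffold RCOR1 and histone deacetylases to its target genes. It is known from mice and humans as a factor that restrains blood stem cell division, is needed for neutrophils to form, and is switched on in developing lymphocytes and in activated T cells. Its name, growth factor independence, comes from rat T lymphoma cells that had stopped needing interleukin-2.

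The median correlation across transcripts was 0.992 between arrays of the same dog and phase and 0.952 between dogs. On every array 71.0% to 80.9% of spots were well above background. The arrays lay on 7 slides, and the 3 resistant arrays of dog 4 had a slide and a scan day of their own, so that phase, slide and scan day cannot be told apart in this dog. The B cell gene MS4A1, which codes for CD20, was well above background on all 24 arrays, with changes between -0.29 and 0.21 in single dogs. Among the other measured B cell markers, CD40 had changes of 0.35, 0.07, 0.22 and 0.04 in dogs 1 to 4. CD38 had -0.94, -4.22, -0.90 and -0.31, so these markers did not all hold steady. The number of arrays limits the precision of all values.

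The GFI1 probe was well above background on all 24 arrays and saturated on 0. Each level is the processed signal on the log2 scale, less the 75th percentile of its array, so that 0 is as bright as that percentile. In dog 1 the levels were -3.94, -3.63 and -3.66 on the resistant arrays, against -2.42, -2.39 and -2.34 on the sensitive arrays. In dog 2 they were 0.11, 0.09 and 0.14 in the resistant phase, against 1.45, 1.48 and 1.33 in the sensitive phase. Every resistant array of these dogs lay below every sensitive array of the same dog.

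In dog 3 the levels were -2.20, -2.17 and -2.30 on the resistant arrays, against -1.37, -1.35 and -1.28 on the sensitive arrays. In dog 4 they were -2.95, -2.95 and -3.01 in the resistant phase, against -1.87, -1.94 and -1.92 in the sensitive phase. The phases did not overlap in these dogs either. Resistant arrays lay below sensitive arrays without overlap in all 4 dogs for 2.89% of the transcripts, GFI1 among them.

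**Figure D1:**
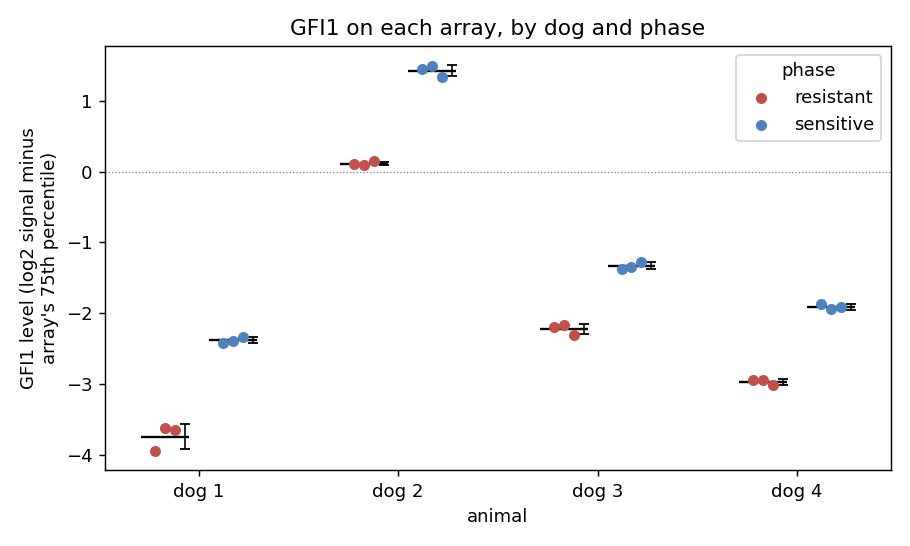
GFI1 level on each of the 24 arrays (points), by dog and phase, as log2 processed signal minus the array's 75th percentile, with the mean (line) and SD (bar) of the 3 arrays of each group. The resistant arrays lie below the sensitive arrays in each dog, and both phases of dog 2 lie above all arrays of the other dogs.

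The raw signal shows how bright the probe was. In dog 2 its processed signal was 1020.1, 998 and 1050.1 on the resistant arrays, against 2905, 2914 and 2818 on the sensitive arrays. In dog 1, the dimmest dog, it was 57.5, 74.2 and 68.8 in the resistant phase, against 154, 152 and 151 in the sensitive phase. GFI1 was brighter than 75.6% to 75.9% of all spots on the resistant arrays of dog 2 and than 83.6% to 84.4% on its sensitive arrays. In dog 1 it was brighter than 45.3% to 49.3% of the spots in the resistant phase and than 57.0% to 57.5% in the sensitive phase.

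The fall was between 1.86-fold and 2.56-fold in single dogs. The mean level was -3.74 ± 0.18 in the resistant and -2.38 ± 0.04 in the sensitive phase of dog 1 (SD, n = 3 arrays each), a change of -1.36 with a standard error of 0.10 from these arrays. In dog 2 it was 0.11 ± 0.03 in the resistant and 1.42 ± 0.08 in the sensitive phase, a change of -1.31 (SE 0.05). In dog 3 it was -2.22 ± 0.07 and -1.33 ± 0.05 in the resistant and the sensitive phase, a change of -0.89 (SE 0.05).

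In dog 4 the mean level was -2.97 ± 0.04 in the resistant and -1.91 ± 0.04 in the sensitive phase, a change of -1.06 (SE 0.03). The change was smallest in dog 3 at this scaling, whereas in the authors' value table dogs 3 and 4 had -0.86 and -0.85, and after normexp background correction dog 1 had -0.74 and dog 3 -0.73. Over the 4 dogs the mean change was -1.16 ± 0.22 (SD), a 2.23-fold lower level in the resistant phase. These are aspirates of mixed cells, in which fewer cells that make GFI1 and less GFI1 RNA per cell cannot be told apart.

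The same change could be read within 1 slide in 3 of the dogs. In dog 1 the resistant array on slide 1 against the 3 sensitive arrays of that slide gave -1.56, and this array was also the lowest of its group. In dog 2, 3 resistant arrays against the 1 sensitive array on slide 3 gave -1.22. In dog 3, 1 resistant array against 3 sensitive arrays on slide 4 gave -0.87. In dog 4 no slide held both phases.

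Set among all transcripts of a dog, the GFI1 change was not extreme. A more negative change was measured for 6.20% of the transcripts in dog 1, for 8.06% in dog 2 and for 6.97% in dog 3. In dog 4 the share was 1.93%. There falls were rarer, with 1.5% of the transcripts called lower at an adjusted p under 0.05 and at least 2-fold, while 8.1%, 9.84% and 5.39% were in dogs 1 to 3 (limma, 24 arrays).

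What set GFI1 apart in the choice was the evenness of its fall. Of the named genes, 46 were lower in each dog and 2-fold or more on average, and GFI1 had the smallest SD over the dogs, at 0.22. ZFPM2, which codes for a partner of GATA factors, came after it with an SD of 0.43, and the stromal chemokine gene CXCL12 followed with 0.50. Among all 829 such transcripts, named or not (2.99% of those tested), GFI1 stood at place 6. The median SD of the change over the dogs was 0.38 for all transcripts. By limma's interaction F-test over the 24 arrays, the change differed between dogs for 78.8% of all transcripts (adjusted p under 0.05). GFI1 was among them (adjusted p = 0.000412), so its 4 changes differed by more than the spread between arrays, even though their SD was the smallest of the 46. GFI1 was chosen by these same 4 changes, so its p describes them and is no independent test.

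**Figure D2:**
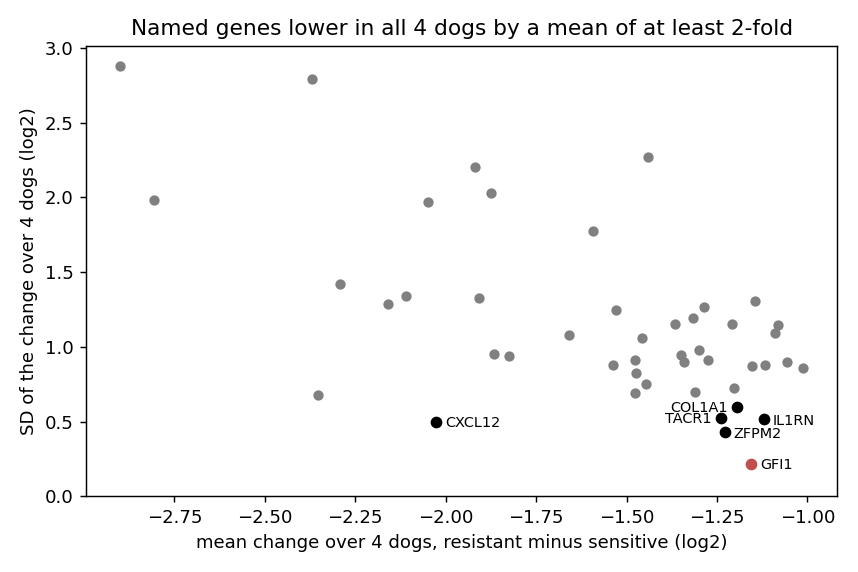
The 46 named genes lower in each of the 4 dogs and at least 2-fold lower on average, with the mean change (resistant minus sensitive, log2) across and the SD of the 4 dogs' changes up. GFI1 (red) lies lowest, at a mean of -1.16 and an SD of 0.22, and the 5 genes next in order are named. The plot shows the values by which GFI1 was chosen.

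The level of GFI1 varied more over the dogs than its change did, and the choice did not use the level. Taken as the mean of both phases, it stood at 0.77 for dog 2, at -1.78 for dog 3, at -2.44 for dog 4 and at -3.06 for dog 1. The dogs stood in this order in the resistant phase and again in the sensitive phase. The distance from dog 1 to dog 2 was 3.83, a 14.2-fold difference and 3.32 times the mean change between the phases.

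In the resistant phase dog 2 was 5.05-fold above the next dog, and in the sensitive phase 6.75-fold. Its resistant level of 0.11 lay above the highest sensitive level of another dog, which was -1.33 in dog 3. The distance between the highest and the lowest dog was smaller than that of GFI1 for 97.7% of the transcripts, with a median of 0.78 over all of them. The dog levels differed by limma's F-test over the 24 arrays (F = 2768, adjusted p = 1.59e-21), in which 86.7% of all transcripts passed. That p rests on the spread between arrays, which was 0.08 (SD) for GFI1 and had a median of 0.11.

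The slides were not shared by all dogs, but 2 slides held arrays of a pair of dogs. On slide 2, resistant arrays of dog 1 had GFI1 levels of -3.63 and -3.66, and sensitive arrays of dog 2 had 1.45 and 1.48. On slide 5, resistant arrays of dog 3 had -2.17 and -2.30, and sensitive arrays of dog 4 had -1.87 and -1.94. The distance between dogs 1 and 2 was thus also present on 1 slide, where the phases differed too.

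In the order of the 8 groups, dog 2 sensitive was highest, followed by dog 2 resistant, dog 3 sensitive, dog 4 sensitive, dog 3 resistant, dog 1 sensitive, dog 4 resistant and dog 1 resistant. No neighbours in this order overlapped in their arrays. The closest pair was dog 3 resistant and dog 1 sensitive, whose means differed by 0.16, with SDs of 0.07 and 0.04.

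Of genes that work with or around GFI1, few could be named on this array. The 4 lists written for this purpose held 115 genes besides GFI1, of which 19 had a named probe and 18 were measured. The paralogue GFI1B and the partners KDM1A, RCOR1, HDAC1 and HDAC2 were not matched to a probe by accession and were not analysed here. Across the 4 dogs, 0 of the 18 passed at an adjusted p under 0.05 in either direction (limma on 8 group means, dog as block), as did 0 of all 27722 transcripts (0%). At an unadjusted p under 0.05 there were 2 of the 18, IL2 and ZFPM2, and 1602 of all.

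Within single dogs a change passed at an adjusted p under 0.05 together with at least 2-fold (limma on 24 arrays). Of the 18, 3, 4, 3 and 1 fell in dogs 1 to 4, where 8.1%, 9.84%, 5.39% and 1.5% of all transcripts did. The falls in dog 2 included IL21 and ZFPM2, and those in dog 3 ZFPM2. These probes were well above background on all 3 arrays in sensitive groups alone, which is what kept them in the test. In the other direction 1, 1, 1 and 0 rose, where 3.83%, 3.98%, 1.36% and 4.06% of all transcripts did. Their median change over the dogs was -0.24, against 0.06 for all transcripts. Of the 18, 3 were lower in all 4 dogs (7.01% of all transcripts), namely BAX, IL2 and ZFPM2, and 0 were higher in all 4 (8.29%). For BAX and IL2 this rests on small changes. ZFPM2 had larger ones (-1.25, -1.70, -1.30 and -0.67 in dogs 1 to 4) but was well above background on 11 of 24 arrays. With each array scaled to its median, BAX was not among the genes lower in all 4 dogs (0.12 in dog 2). Without 1 sensitive array of dog 3 IL2 was not. Quantile normalisation gave 5 such genes and normexp 4. With probes well above background on all 24 arrays there was 1. The IL2 and ZFPM2 probes used here did not meet that filter.

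SNAI2, a repressor of another gene family that also carries a SNAG domain, was the 1 measured gene of the family and partner list. It fell in dog 3, with a change of -1.93. Its changes in dogs 1, 2 and 4 were -0.90, -0.60 and 0.17, all under 2-fold.

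Of genes reported in mouse or human work as repressed or bound by GFI1, 8 were measured. Their median change over the dogs was -0.11, and medians in dogs 1 to 4 were -0.12, -0.12, -0.19 and 0.27. Of the 8, 1 rose in dog 1, 2 fell in dog 2, 1 fell in dog 3 and 0 passed in dog 4. Of all transcripts 3.83% rose in dog 1, and 9.84% and 5.39% fell in dogs 2 and 3. In dog 4 1.5% fell and 4.06% rose. With 8 genes these counts are too small to set apart from those shares. BAX, which triggers cell death at the mitochondrion, had changes of -0.33, -0.02, -0.36 and -0.35 in dogs 1 to 4. BAK1, of the same family and function, had 0.52, -0.22, 0.34 and 0.34. All of these changes were under 2-fold.

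CCND1, the cyclin of the entry into the division cycle, fell in dog 2 (-1.03) and had -0.51, -0.43 and 0.53 in dogs 1, 3 and 4. CSF2, a growth factor gene of granulocytes and macrophages, fell in dog 2 as well. There 0 of its 3 resistant signals stood well above background, which makes it at least 1.67-fold lower, against a bound set by the dimmest probe still above background. Its change was -0.92 for dog 3 and 0.34 for dog 4, neither of which passed.

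ELANE, coding for neutrophil elastase, was named after its values were seen. It is the target whose link to GFI1 is best known, from inherited neutropenia in humans. It rose in dog 1 (1.44), where 3 of 3 resistant and 1 of 3 sensitive arrays lay well above background, and it fell in dog 3 (-2.11), where 2 of 3 resistant arrays did. Dogs 2 and 4 had changes of 0.07 and 0.44, which did not pass. ELANE is also 1 of the 5 measured neutrophil markers given below. The part of neutrophils or of GFI1 in its changes was not tested.

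Of cytokines and receptors upstream of GFI1, 6 were measured, with a median change of -0.31. IL2, the T cell growth factor gene, had changes of -0.34, -0.59, -0.50 and -0.17 in dogs 1 to 4, all under 2-fold. In dog 3 this rested on sensitive array 3, at -3.86 against -5.52 on both others, and the change was 0.05 without it. In dog 2 it was -0.16 without resistant array 2. IL2RA, the inducible chain of its receptor, fell in dog 4 (-1.14) and had -0.55, -0.39 and 0.14 in dogs 1 to 3. IL2RG, the chain shared with other cytokine receptors, had 0.34, -0.02, 0.86 and 0.41, also under 2-fold.

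IL7, a growth factor gene of lymphocytes, fell in dog 1 (-1.05) and had -0.25, -0.05 and 0.49 in dogs 2 to 4. IL21, whose product helper T cells release, was lower by at least 85.6-fold in dog 2, where 3 of 3 sensitive and 0 of 3 resistant arrays lay well above background. It was below background in both phases of dogs 1 and 3. Its probe was kept for testing through the sensitive group of dog 2 alone. IL6, an inflammatory cytokine gene, was at least 2.98-fold higher in dog 3 and rose in dog 2 (1.86, with 1 of 3 sensitive arrays well above background). Its change was -0.60 in dog 1 and 0.89 in dog 4, neither of which passed. In dog 4, 2 of 3 resistant and 0 of 3 sensitive arrays lay well above background.

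Of the list written for other transcription factors of blood cell lineages, 4 genes were measured, with a median change of -0.21. Among these, ZFPM2 codes for a partner of GATA factors and is not itself established as a blood lineage factor. ZFPM2 was lower by at least 2.56-fold in dog 2 and 2.28-fold in dog 3, where it passed. It also passed in dog 1 (-1.25), but 1 of 3 resistant and 2 of 3 sensitive arrays were above background there, and without resistant array 2 the change was -0.76. It was well above background on 11 of 24 arrays, while GFI1 was so on all. Its probe was kept for testing through the sensitive groups of dogs 2 and 3 alone. ID3, which blocks E protein factors in lymphocytes, fell in dog 1 (-1.39) and had 0.20, -0.08 and 0.05 in dogs 2 to 4. MYC, a driver of cell growth, had -0.35, 0.20, -0.01 and -0.14, and NR4A1, induced by antigen receptor signals, had -1.16, 0.63, 0.17 and -0.07. The MYC changes were under 2-fold, and none of NR4A1 passed. The resistant arrays of dog 1 had NR4A1 levels of -2.03, -6.43 and -6.90, and leaving out each in turn gave changes from -2.70 to -0.27. Without resistant array 1 of dog 2 its change there was 0.16.

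Markers of blood cells were lower on average in the resistant phase of dogs 1 to 3. Of 20 measured markers of T cells, NK cells, B cells, neutrophils and macrophages, 11, 10, 12 and 0 fell in dogs 1 to 4, and 1, 3, 0 and 0 rose. The 11 of dog 1 included ICOS, with 0 of 3 arrays well above background in either phase. Over all transcripts 8.1%, 9.84%, 5.39% and 1.5% fell and 3.83%, 3.98%, 1.36% and 4.06% rose, so the count of 0 in dog 4 is near its background. Their mean change was -1.61, -1.65 and -1.54 in dogs 1 to 3 and 0.11 in dog 4, while GFI1 had -1.36, -1.31, -0.89 and -1.06. The part of these cells in the GFI1 change was not tested.

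T cell markers numbered 6 measured of 15 listed, and CD3 genes were not among them. In dogs 1 to 4, 3, 6, 4 and 0 members were lower past the test, where 8.1%, 9.84%, 5.39% and 1.5% of all transcripts were. The count of dog 1 included ICOS (-1.17), with 0 of 3 arrays well above background in either phase. It also included CD28 (-1.19), with 1 of 3 resistant arrays well above background. The T cell markers had a mean change of -1.30, -3.97, -0.96 and 0.34 in dogs 1 to 4. The size depended on the setting: it was -0.30, -2.26, -0.43 and 0.12 after normexp, -0.57, -2.78, -0.62 and 0.23 in the value table, and -0.53, -2.80, -0.47 and 0.12 for the 3 members above background on all arrays. Their mean level was -5.60, -5.08, -4.07 and -3.55 in the resistant phase of dogs 1 to 4, against -4.30, -1.11, -3.11 and -3.89 in the sensitive phase. The list was highest in the sensitive phase of dog 2, as GFI1 was. In the resistant phase of dog 2 it lay below that of dogs 3 and 4, while GFI1 there lay above all groups of the other dogs. The 2 measured NK markers had mean changes of -2.23, -6.33, -1.17 and 0.14, with mean levels from -3.65 to -2.37 in the resistant and from -2.51 to 2.72 in the sensitive phase.

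Neutrophil markers, with 5 of 10 measured, had mean changes of -2.10, 1.86, -3.42 and 0.08 in dogs 1 to 4. In dog 2 the list was thus higher on average in the resistant phase, while GFI1 had a change of -1.31. There 2 members rose, as did 3.98% of all transcripts. The mean level of the neutrophil list ran from -5.14 to -3.10 in the resistant and from -4.95 to -1.71 in the sensitive phase. Macrophage markers, 4 of 10 measured, had -2.14, -0.44, -1.28 and 0.02. Their mean level ran from -3.14 to -1.69 in the resistant and from -3.16 to -0.40 in the sensitive phase.

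Stroma markers were lower on average in all 4 dogs, as GFI1 was. With 8 of 9 measured, the list had mean changes of -0.72, -1.57, -1.64 and -0.58. In dogs 1 to 4, 3, 6, 6 and 2 members fell, while 1, 0, 0 and 0 rose. Of all transcripts 8.1%, 9.84%, 5.39% and 1.5% fell, and 3.83%, 3.98%, 1.36% and 4.06% rose. The members differed. Of the 8, 3 were lower in all 4 dogs (7.01% of all transcripts were), namely COL1A1, COL1A2 and CXCL12. CCL19 rose in dog 1 (2.50) and fell in dogs 2 to 4 (-2.88, -2.66 and -1.28). PDGFRB had 0.25, -0.05, 0.01 and -0.19 in dogs 1 to 4. In dog 4 the 2 that fell were CXCL12, with a change of -1.69, and CCL19. The mean level of the stroma list ran from -3.84 to -2.40 in the resistant and from -3.12 to -0.76 in the sensitive phase. The part of stroma in the GFI1 change was not tested. B cell markers, 3 of 13 measured, had mean changes of -0.30, -1.33, -0.16 and -0.18. Their 1 fall was that of CD38 in dog 2 (-4.22), where 9.84% of all transcripts fell. Red cell, platelet and mast cell markers, 5 of 12 measured (EPOR, KIT, CMA1, and the platelet genes ITGA2B and GP1BA), had mean changes of -0.94, -1.02, -0.41 and -0.07. Of these, 2, 2, 1 and 0 fell in dogs 1 to 4 and 0 rose, beside the shares of all transcripts given above. CMA1 and GP1BA were the 2 lower in all 4 dogs. The mast cell gene CMA1 had -3.02, -3.07, -0.59 and -0.94, while ITGA2B had -0.59, 0.25, 0.37 and 0.58. The cell division gene BIRC5 had changes of -0.18, 0.59, -0.46 and 0.04, all under 2-fold.

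**Figure D3:**
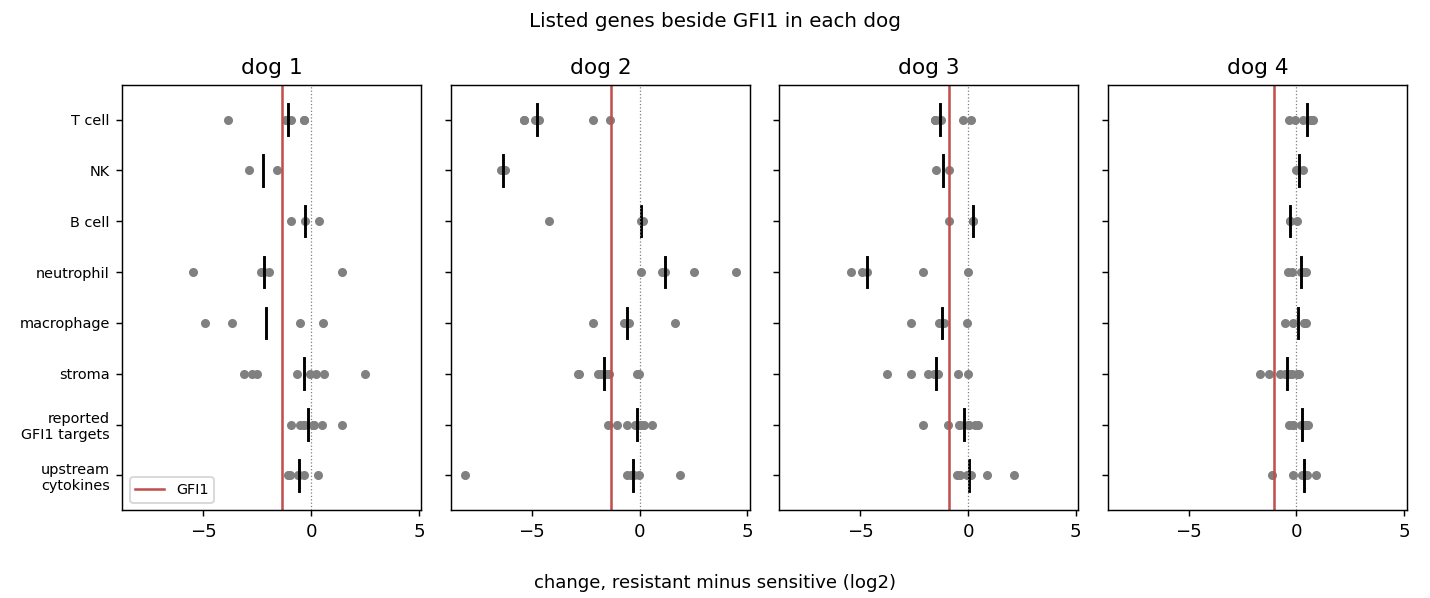
Change between phases (resistant minus sensitive, log2) of each measured list member (points) and the list median (black bar) in each dog, with the GFI1 change as a red line and values below background drawn as measured. The red line lies between -1.36 and -0.89 in all 4 dogs, while the immune cell markers of dog 4 lie around 0 and those of dog 2 reach below -6.

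Over the 8 group means, the named genes most like GFI1 in level were HSD11B1 (r = 0.96), MAOA (0.96), INPP5A (0.95), CAV1 (0.95) and ST6GALNAC2 (0.93). The median r of the 717 other named genes was 0.10, and 11 of them exceeded 0.9. These are correlations over 8 groups of 4 animals, which share the high level of dog 2. HSD11B1 makes active cortisol, MAOA breaks down amines, INPP5A is an inositol phosphate phosphatase, CAV1 forms caveolae, and ST6GALNAC2 attaches sialic acid to proteins.

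All 5 were highest in dog 2 and lowest in dog 1, as GFI1 was. The distance between these dogs was 2.85 for HSD11B1, 3.49 for MAOA, 2.85 for INPP5A and 2.74 for ST6GALNAC2, against 3.83 for GFI1. For CAV1 no array of dog 1 rose well above background. The genes parted from GFI1 in dog 4, where the change between phases was 0.32 for HSD11B1, -0.23 for MAOA, -0.59 for INPP5A, -0.05 for CAV1 and -0.11 for ST6GALNAC2, against -1.06 for GFI1.

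**Figure D4:**
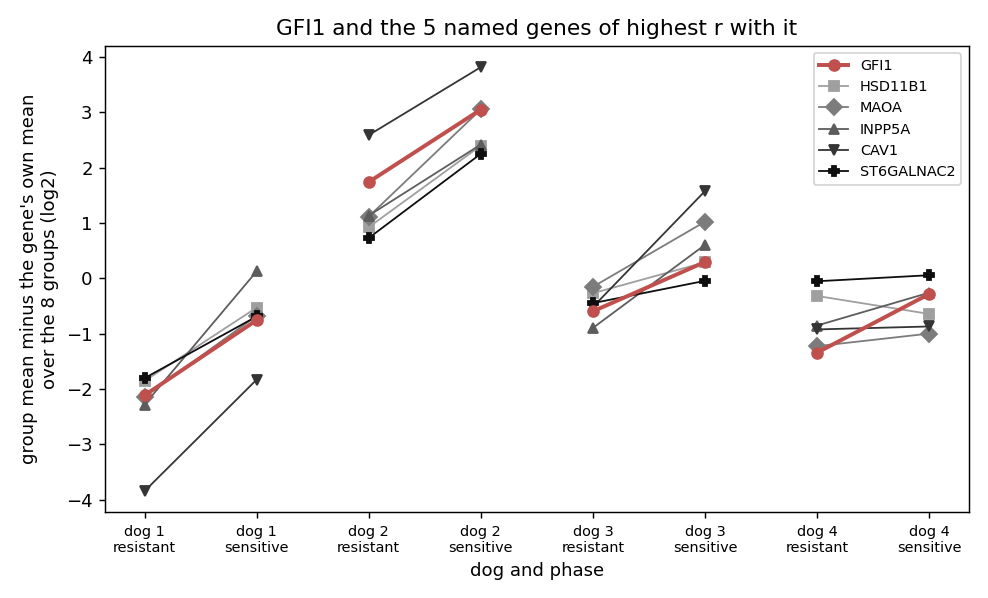
Group means of GFI1 (red) and of the 5 named genes of highest r with it (grey to black), each minus its own mean over the 8 groups (log2), by dog and phase, with CAV1 in dog 1 at its measured signal below background. All 6 genes are highest in dog 2 and lowest in the resistant phase of dog 1, and in dog 4 GFI1 has the steepest line.

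By the 4 changes alone, the genes nearest to GFI1 were IL1RN, ZFPM2, TACR1, SAG and FLT3. IL1RN, coding for the interleukin-1 receptor antagonist, differed from GFI1 by 0.31 (root mean square over the dogs), with changes of -1.86, -1.09, -0.70 and -0.84. Its r with GFI1 over the 8 groups was -0.33, since its levels ranked the dogs in another way. TACR1, the substance P receptor gene, had -1.72, -1.56, -1.13 and -0.55 (0.36). FLT3, a receptor gene of blood progenitors and dendritic cells, had -1.09, -0.73, -1.36 and -0.79 (0.42), with an r of 0.80. ZFPM2 (0.35) and SAG (0.40), a photoreceptor arrestin gene, were each well above background on 11 of 24 arrays. FLT3 was thus the gene of these 5 with the highest r with GFI1 in level.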

How the data were processed

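RNA of 24 arrays was labelled with Cy3, and the authors deposited scanner files of spot intensity. Agilent Feature Extraction 10.7.3.1 made them, per the submitters' processing notes. Its processed intensity was, per the file headers, background-subtracted and detrended within each array, with no scaling between arrays. The authors' deposited value table equalled the median spot intensity (largest difference 0). Groups and array numbers came from the sample titles. The sources used here name no genome build.

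Each processed signal was taken to log2 and set relative to the 75th percentile of its array. Of 45220 spots, 1417 controls and 6 to 195 outlier spots per array were left out. A probe was kept if some group had it well above background on all 3 arrays (34550 of 43603), and the brightest probe stood for a gene. Of 35908 identifiers 832 matched a RefSeq gene table (assembly UU_Cfam_GSD_1.0, used for names alone). The GFI1 probe is 1 spot.

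limma 3.58.1 (R 4.3.3) was fitted to all transcripts with Benjamini-Hochberg adjustment, two-sided, after checks on simulated data. Across dogs, 8 group means were fitted with the dog as a block, since both phases come from 1 animal. Within dogs, and for dog levels, 24 arrays in 8 groups were fitted. Array numbers did not pair the arrays. "At least" folds set the bright group's mean against that of the dim group, taking on each array the probe's own signal or, if higher, the lowest signal still well above background.

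Named genes were all measured members of a list of up to 6, the 4 of largest mean change of a longer list, the 5 of highest r with GFI1 over the groups, the 5 of nearest changes, and the neighbours in order of SD. The members and lists were chosen with earlier results of these data known. Alternatives were 4 other scalings or sources, 2 probe filters, the mean of probes, slide and array number as blocks, and leaving out arrays or dogs.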

Additional observations from a re-analysis of the deposited data

Results flagged for a closer look

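The change between phases differed between dogs by limma's interaction F-test, in which 78.8% of all transcripts passed, for 13 of the 16 genes described from the 4 lists and for GFI1. The adjusted p was 0.000412 for GFI1, 0.000185 for ELANE, 7.42e-07 for SNAI2, 0.00122 for CSF2, 5.37e-09 for CCND1, 5.4e-05 for BAX, 1.64e-06 for BAK1, 6.4e-12 for IL2RA, 3.21e-08 for IL2RG, 1.99e-05 for IL6, 2.73e-07 for IL7, 5.72e-13 for IL21, 1.34e-07 for MYC and 2.09e-14 for ID3. These p-values rest on the spread between arrays, and that of GFI1 also on the 4 changes by which it was chosen. IL2, ZFPM2 and NR4A1 did not pass (adjusted p = 0.868, 0.243 and 0.485).

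In 2 genes, 1 dog stood apart from the other 3 in its change, by a gap that took a large share of the range (Dixon's 95% limit), which chance gives in about 1 of 20 such groups. Such a gap was looked for in each of the named genes, so some can come by chance. For BAX it was dog 2 (0.91), at -0.02 against -0.33 to -0.36. For IL21 it was dog 2 (0.852), the 1 dog in which all 3 sensitive arrays lay well above background. In dogs 1 and 3, 0 of its arrays did in either phase, and in dog 4 0 resistant arrays and 1 sensitive array did. The IL21 changes of those dogs are thus differences between signals near background. Its probe was kept for testing through the sensitive group of dog 2 alone, so this gap is no independent result.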

How the results depend on the processing

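The mean GFI1 change of -1.16 ran from -1.24 to -1.09 on leaving out each array or dog, and from -1.16 to -0.91 over 6 other settings with 4 dogs. With the slide as a block, dogs 1 to 3 alone had -1.22, against -1.19 without it. The value of -0.91 came after normexp background correction with quantile normalisation, whose added offset of 50 compresses dim signals. Single dogs then had -0.74, -1.33, -0.73 and -0.85. Scaling to the median gave all transcripts a median change of 0.12 in dog 1 and 0.26 in dog 2, where the 75th percentile gave -0.06 and 0.11, and gave GFI1 -1.18, -1.16, -0.80 and -1.12. The mean change of the immune cell markers lay between -1.65 and -0.88 in dogs 1 to 3 and between -0.01 and 0.11 in dog 4 over the 5 scalings and sources. After normexp, stroma markers had mean changes of -0.26, -0.95, -1.25 and -0.41 in dogs 1 to 4, neutrophil markers -1.35, 1.11, -2.15 and -0.05, and macrophage markers -1.27, -0.37, -0.87 and -0.12. With probes above background on all arrays, stroma markers had -0.09 in dog 1, and macrophage markers 0.14 in dog 2. The difference between dogs in GFI1 level passed under all 9 settings (adjusted p from 7.76e-23 to 4.21e-19) and without each array (F from 2235 to 6008). With the slide as a fixed block this difference could not be fitted, since no slide joins dogs 2 and 3, and the slide as a random block was added after seeing the data.

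Calls of list genes within dogs numbered 14 over the 4 dogs, and 13 to 17 without each array. The normexp setting gave 3 calls and the value table gave 5. With probes limited to those well above background on 24 of 24 arrays the number was 5, as fewer genes were tested. Across dogs 0 list genes were called, also without each array or dog (lowest 0, highest 0), and 3 with the group as a random block over 24 arrays (BAX, IL2RA and IL2RG), where 6.33% of all transcripts were called. The array number as a replicate block left the GFI1 change at -1.16 and the list calls at 14, and the fit across dogs with no replicate block called 0. Of 12 same-numbered array pairs of a dog, 0 correlated above 0.1 in their deviations from the group means. GFI1 has 1 probe, so no second probe of it could be compared. The normexp setting used median spot signals in place of the planned means.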
